A study of Mus musculus with 12 samples.

Results

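Collagen chain genes encode the single polypeptides of which collagen trimers are built, and they were followed here in ribosome-bound RNA of the mouse retina between postnatal day 3 (P3) and postnatal day 9 (P9). The members are all genes whose symbol is Col, a type number, the letter a and a chain number, and 44 of the 53090 genes in the tables met that rule. All 44 had a summed count of at least 100 over the 12 libraries and passed the filter on low counts, so none is left out below. They were grouped by collagen type into 6 type IV chains, 11 fibrillar chains, 6 type VI chains and 21 chains of other types. The study took retinas of C57BL/6 mice, 6 libraries at each age. The labels name retinal pericytes as the cell type, and RNA was recovered through HA-tagged ribosomes. Both ages shared the tag and tamoxifen injections on postnatal days 1 and 2, so P3 and P9 differ in the time since induction as well as in age, and these cannot be told apart. The promoter that drives the tag, the Cre line and any pooling of animals are not stated in the labels, and RNA from before the immunoprecipitation was not analysed here. The stated design question is which mural cell signatures mark these ages of retinal angiogenesis.

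Each collagen molecule is 3 chains wound into a triple helix. The chains are hydroxylated and folded in the endoplasmic reticulum, secreted and then crosslinked outside the cell. Type IV collagen forms the network of basement membranes, including those that pericytes and endothelial cells share around retinal capillaries, of the lens capsule and of the inner limiting membrane. Its chains combine into a trimer of α1 and α2 chains found in nearly every basement membrane, a trimer of α3, α4 and α5 chains, and one of α5 and α6 chains. Fibrillar collagens form the banded fibrils of connective tissue and, through type II, of the vitreous. Type VI forms beaded filaments beside basement membranes, and type IX sits on the surface of type II fibrils.

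Library totals ran from 26839599 to 37776172 expected counts. Levels are given in CPM, counts scaled to library size with TMM factors, and 1 CPM stands for 25.8 to 38.5 counts in a library. Collagen genes differ in transcript length, so levels are compared between ages and not between genes, apart from ratios of partner chains whose change with age is the quantity of interest. The summed level of the 14 pericyte markers in the tables was 368 to 1379 CPM at P3 and 2894 to 6509 CPM at P9, and 13 of the 14 rose, beside 26.1% of all tested genes. Their defining gene Rgs5 had a mean of 395 ± 272 CPM at P3 and 2698 ± 762 at P9 (SD, n = 6 at each age). Markers of other cells were present as well: the summed lens list was 5837 to 17616 CPM at P3 and 87.9 to 2595 CPM at P9, and the rod list 1428 to 3102 and 8189 to 16698 CPM. The labelled cell type is therefore represented by its markers at both ages, beside RNA of other cells. P3 replicate 1 stood apart for some connective tissue genes: Dcn, the small proteoglycan decorin, measured 21.8 CPM there and at most 3.10 in the other P3 libraries. Of the fibroblast and meningeal list, Dcn, Lum, Fmod, Dpt, Ogn, Twist1, Aldh1a2 and Crabp2 had their highest P3 level there. Lum measured 9.48 and Fmod 6.71 CPM. Pdgfra, Mgp, Gpc6, Islr, Fbln1 and Slc6a13 were not highest there, and Gpc6 had its lowest P3 level there, 21.2 CPM. The sum of the list did not stand apart, at 181 CPM there against 205 and 201 CPM in P3 replicates 4 and 5. Its largest part there was Pdgfra, 65.7 CPM, so the sum hardly reflects the smaller members. P3 replicate 1 had the highest P3 level of 16 of the 44 collagen genes, and where it lay far above the other P3 libraries the values are given with and without it.

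Collagen genes moved in both directions between the ages. Among the 44, 17 rose from P3 to P9, 8 fell and 19 did not pass the test, which is edgeR's quasi-likelihood test with Benjamini-Hochberg adjustment over 18638 genes and a threshold of 0.05. Among all tested genes 26.1% rose, 25.6% fell and 51.8% were called in either direction. The collagen shares were 38.6% rising, 18.2% falling and 56.8% called, so the share called lay near that of all genes. The counts by collagen type and by gene list below are to be read against 26.1% rising, 25.6% falling and 51.8% called among all tested genes. The median log2 fold change of the 44 was 0.35, and that of all tested genes was -0.0018. In 9 of the 44 the 6 P3 and the 6 P9 values did not overlap, 5 of them higher at P9 and 4 lower, while 31.7% of all tested genes showed no overlap (16.3% with P9 higher and 15.4% with P9 lower). In bulk RNA of this kind, fewer cells of a type and less RNA per cell cannot be told apart. The labels do not say that libraries came from separate animals, so a p-value covers only the spread among libraries, which may be technical.

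**Figure D1:**
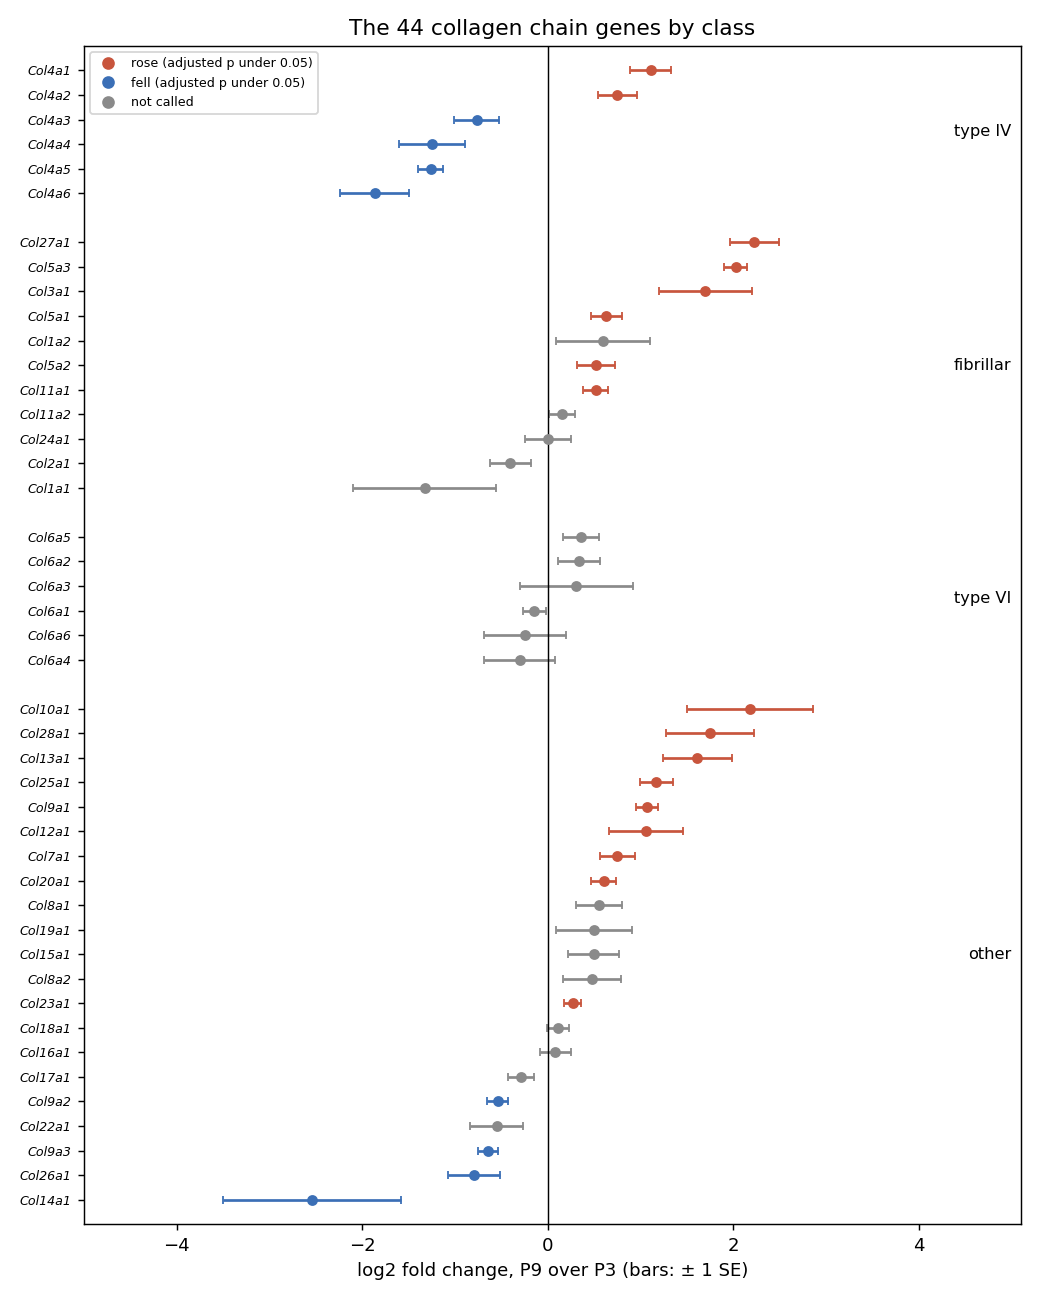
Log2 fold change of each of the 44 collagen chain genes, P9 over P3, with its standard error as a bar, grouped by collagen type; red points rose and blue points fell at an adjusted p under 0.05, and grey points were not called. The 4 minor type IV chains lie left of 0 and Col4a1 and Col4a2 right of it, the fibrillar points that passed all lie right of 0, and none of the 6 type VI points passed.

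All 6 type IV genes changed, beside 51.8% of all tested genes, the major chains one way and the minor chains the other. Col4a1, which encodes the α1 chain, ran from 307 to 688 CPM at P3, with a median of 455, and from 630.04 to 1536 CPM at P9, with a median of 979. Its partner Col4a2 had P3 levels of 267 to 580.2 CPM (median 394) and P9 levels of 457 to 939 CPM (median 628). For Col4a1 only P3 replicate 4, at 688 CPM, reached the P9 range. For Col4a2 P3 replicates 4, 5 and 6 did, at 580.2, 472 and 465 CPM. Both genes rose (log2 fold change 1.11 ± 0.22, adjusted p = 0.000619 for Col4a1, and 0.75 ± 0.21, adjusted p = 0.00783 for Col4a2). The P3 libraries with the highest Col4a1, replicates 4 and 5 at 688 and 576 CPM, also had the highest pericyte sums of P3, 1238 and 1379 CPM. P9 replicate 2 had both the highest Col4a1 level, 1536 CPM, and the highest pericyte sum, 6509 CPM. Of the 12 endothelial markers 7 rose and 1, Kdr, fell. With the endothelial mean as a covariate, which shared 64.3% of its variance with age, Col4a1 was 0.58 (adjusted p = 0.296) and Col4a2 0.30 (adjusted p = 0.600), and neither passed. With the pericyte mean, which shared 86.3%, both values were negative and neither passed, at -0.64 for Col4a1 (adjusted p = 0.372) and -0.84 for Col4a2 (adjusted p = 0.252).

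The 4 minor chains all fell. Col4a5, the chain shared by both minor trimers, measured 61.8 CPM in the lowest, 77.6 at the median and 85.5 in the highest P3 library, against 23.1, 31.7 and 42.2 at P9. Every P9 library lay below every P3 library, with a log2 fold change of -1.26 ± 0.13, adjusted p = 2.25e-06. Col4a6, which pairs with the α5 chain, ran from 49.6 to 117 CPM at P3, with a median of 71.5, and from 8.46 to 48.2 CPM at P9, with a median of 18.3. Here too the ages did not overlap (log2 fold change -1.86 ± 0.37, adjusted p = 0.000675). Col4a3 had P3 levels of 25.8 to 41.5 CPM (median 29.9) and P9 levels of 12.3 to 35.8 CPM (median 14.5). Col4a4 had a median of 26.7 CPM at P3 (range 22.4 to 39.04) and of 9.19 CPM at P9 (range 5.76 to 30.03). For both of these the ages overlapped through a single P9 library, replicate 3, and both fell (log2 fold change -0.77 ± 0.25, adjusted p = 0.0166 for Col4a3, and -1.25 ± 0.36, adjusted p = 0.00867 for Col4a4). Without P9 replicate 3 no P9 library reached the P3 range, and the values were -1.06 for Col4a3 and -1.73 for Col4a4. The Col4a3 call was lost without P3 replicates 4 and 5 (adjusted p = 0.0740) and without P9 replicates 5 and 6 (adjusted p = 0.0538).

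**Figure D2:**
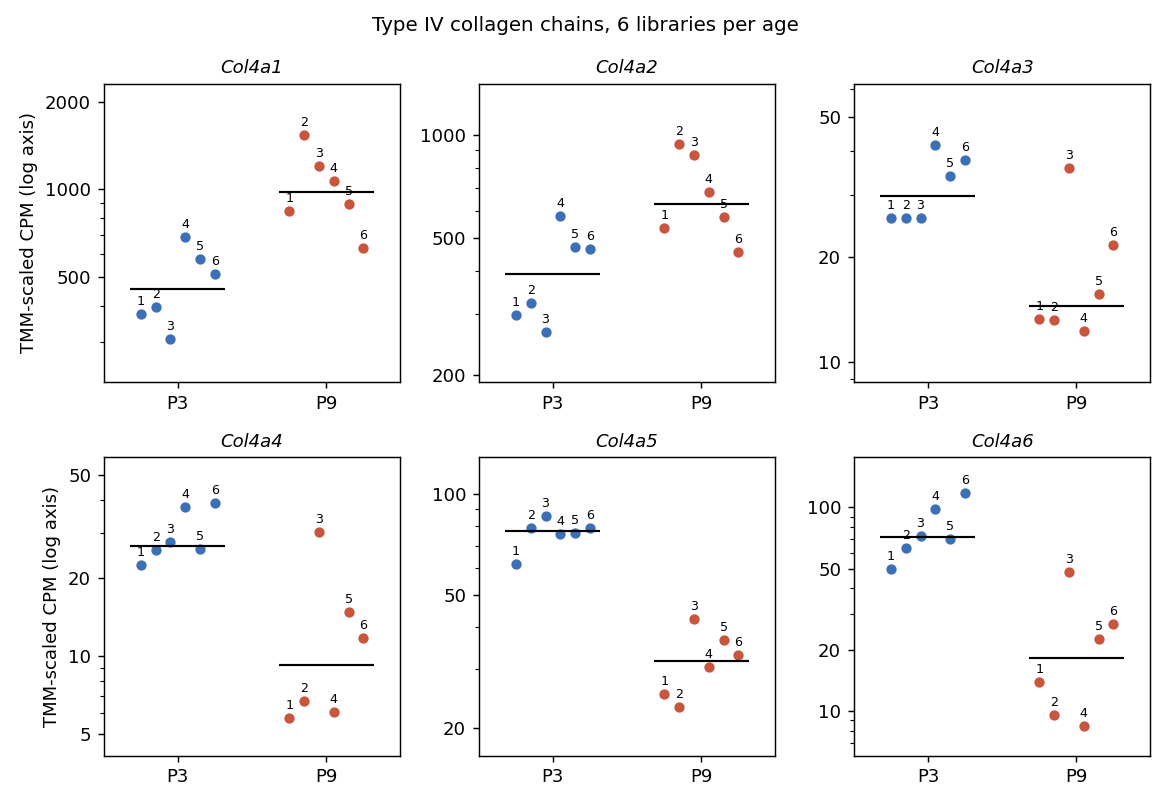
TMM-scaled CPM of the 6 type IV chain genes in each library on a log axis, P3 beside P9, with a line at the median of each age and replicate numbers beside the points. Col4a1 and Col4a2 sit higher at P9, the other 4 genes sit lower, and P9 replicate 3 is the highest P9 point for Col4a3 at 35.8, Col4a4 at 30.03, Col4a5 at 42.2 and Col4a6 at 48.2 CPM.

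Lens markers moved in the same direction as the minor chains, and so did most retinal progenitor markers. The lens makes a thick type IV capsule, and all 19 tested genes of its list fell, their sum by 20.6-fold. Within P9 the order of the libraries differed between the list and the chains. P9 replicate 2 had the highest lens sum, 2595 CPM, and a Col4a6 level of 9.58 CPM, while replicate 3 had a lens sum of 288 CPM and a Col4a6 level of 48.2 CPM. Of the 12 retinal progenitor markers 11 fell and 1 rose, and their mean sum was 1832 CPM at P3 and 973 CPM at P9. P9 replicate 3 had the highest progenitor sum of P9, 1131 CPM. The 6 astrocyte markers, of which 2 rose and 2 fell, had mean sums of 179 CPM at P3 and 91.5 CPM at P9. The 7 markers of ciliary and iris epithelium, of which 1 fell, summed to 79.9 to 116 CPM at P3 and to 78.1 to 119 CPM at P9. P9 replicate 3 also had the highest P9 sum of this list, 119 CPM, and the lowest of the astrocyte list, 79.1 CPM. With the lens mean as a covariate, which shared 84.8% of its variance with age, Col4a1 (1.96, adjusted p = 0.0176) and Col4a5 (-1.69, adjusted p = 0.0153) passed. The other 4 type IV genes did not pass, with adjusted p between 0.0595 and 0.404. Their values in that model were -2.56 ± 1.28 for Col4a6, -1.70 ± 1.17 for Col4a4, -1.06 ± 0.73 for Col4a3 and 1.52 ± 0.47 for Col4a2. These standard errors were wider than those without the covariate. The part of lens or other cells in the type IV values was not tested. With the pericyte mean the minor chains were at -1.80 for Col4a6, -1.45 for Col4a4, -1.28 for Col4a3 and -0.98 for Col4a5, and none of the 4 passed (adjusted p between 0.136 and 0.502). With the endothelial mean they were at -1.52, -0.99, -0.67 and -0.90 in the same order, and Col4a5 passed (adjusted p = 0.00338).

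**Figure D3:**
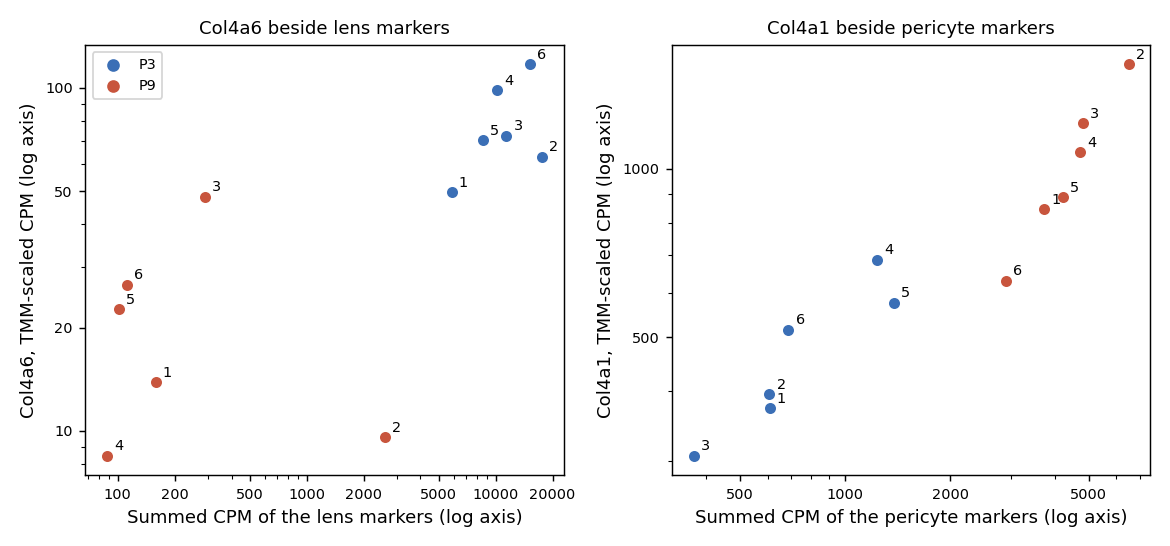
Left, Col4a6 against the summed CPM of the lens markers; right, Col4a1 against the summed CPM of the pericyte markers; each point is a library with its replicate number, and all axes are log axes. The P3 and P9 libraries are separate along each marker axis, and P9 replicates 2 and 3 change places between the lens sum and Col4a6.

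In position Col4a1 with Col4a2 and Col4a5 with Col4a6 form pairs that start close together on opposite strands. In RefSeq on GRCm38.p6 the first pair is Col4a1 (chr8:11198423-11312889) and Col4a2 (chr8:11312805-11449287). The second is Col4a5 (chrX:141475370-141689236) and Col4a6 (chrX:141165403-141474095). Distances were taken between annotated promoter starts, which can differ from the gene ends printed here. The Col4a1 and Col4a2 starts, 11312826 and 11312805, lay 21 bases apart. The Col4a5 and Col4a6 starts, 141475419 and 141474076, lay 1343 bases apart. Both members of the first pair rose, and both of the second fell. Col4a3 (chr1:82586921-82722059) and Col4a4 (chr1:82448419-82587034), which both fell, also adjoin, but the distance between their starts was not measured. The stretches upstream of the Col4a5 and Col4a6 starts are printed because these genes share the interval between them and fell together. The Col4a5 stretch is chrX:141475169-141475369, plus strand, and the Col4a6 stretch is chrX:141474096-141474326, minus strand, both cut short of any annotated gene. Capitals mark matches to the motifs searched on both strands in the 250 bases before each start: the TATA box TATAAA, the CCAAT box CCAAT, the GC box GGGCGG and the CArG box, which is bound by serum response factor.
Col4a5: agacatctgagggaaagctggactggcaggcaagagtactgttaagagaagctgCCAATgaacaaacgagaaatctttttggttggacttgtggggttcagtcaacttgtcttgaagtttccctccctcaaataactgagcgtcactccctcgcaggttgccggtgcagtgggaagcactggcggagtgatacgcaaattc
Col4a6: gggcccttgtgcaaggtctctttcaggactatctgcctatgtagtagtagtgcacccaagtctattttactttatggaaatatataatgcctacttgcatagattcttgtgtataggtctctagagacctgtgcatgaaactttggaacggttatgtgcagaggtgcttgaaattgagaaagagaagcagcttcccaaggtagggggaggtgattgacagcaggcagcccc
The Col4a5 stretch holds a CCAAT match, and the Col4a6 stretch holds none of these letters. Among 32851 starts in the RefSeq table, 12.4% held TATAAA, 33.8% CCAAT, 32.7% GGGCGG and 1.47% a CArG box. Of the 44 collagen genes 35 had an entry, with 38 starts, and 5, 13, 22 and 1 of those starts held these motifs. A match is a description of the letters only, and no match overlapped another in the printed stretches.

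The balance within type IV pairs shifted as well. Ratios of read counts are not molar ratios, because chains differ in length. Length cancels in the change between ages only if each gene keeps the same transcripts at both ages, which was not measured. The ratio of Col4a1 to Col4a2 counts was 1.11 to 1.25 at P3 and 1.38 to 1.64 at P9. The ages did not overlap, and the log2 ratio was higher by 0.35 at P9 (two-sided exact permutation test, p = 0.00216, the smallest this design allows; adjusted p = 0.00974 over 9 pairs). The ratio of Col4a3 to Col4a4 was 0.938 to 1.31 at P3 and 1.06 to 2.31 at P9, with a log2 difference of 0.64 (exact permutation test, adjusted p = 0.0351). That call was lost without any one of 8 libraries, with adjusted p up to 0.0623. Col4a5 over Col4a6 went from 0.672 to 1.25 at P3 to 0.876 to 3.60 at P9, and its log2 difference of 0.79 did not pass (exact permutation test, adjusted p = 0.0552). Without P9 replicate 3 it was 0.99 with an adjusted p of 0.0146 by the same exact test, and without P9 replicate 6 it was 0.89 with 0.0455; over the libraries left out, adjusted p ran from 0.0146 to 0.127.

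**Figure D4:**
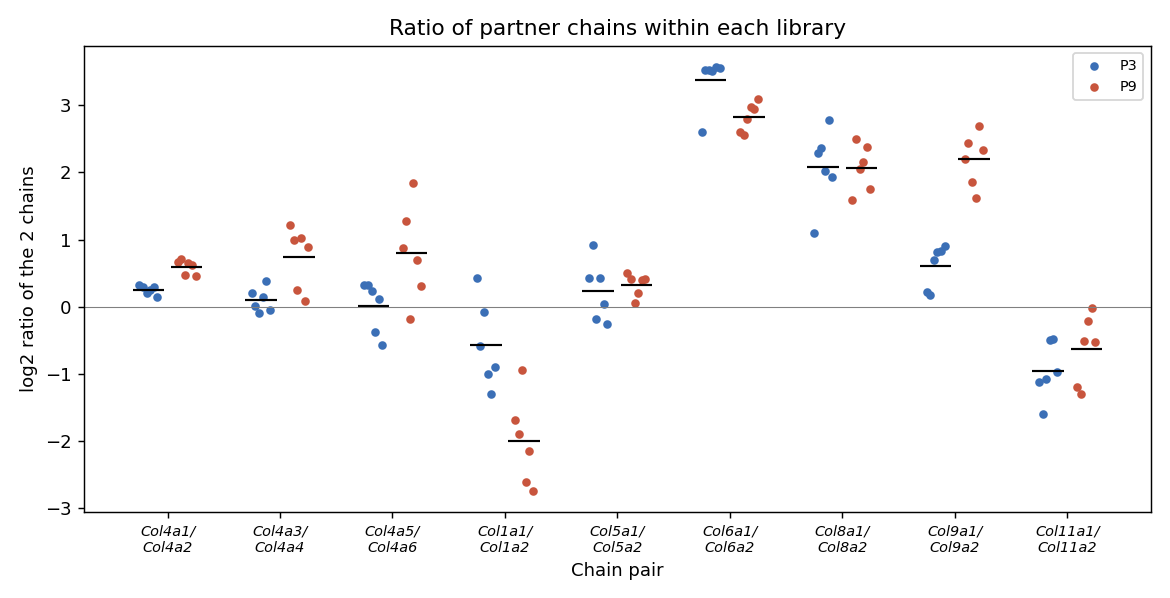
Log2 ratio of counts of partner chains in each library for the 9 pairs tested, P3 beside P9, with a line at the mean of each age. Col9a1 over Col9a2 and Col4a1 over Col4a2 show no overlap between the ages, and Col1a1 over Col1a2 is lower at P9.

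Of the 11 fibrillar genes 6 rose and 5 did not pass, beside 26.1% rising, 25.6% falling and 51.8% called among all tested genes. None of the 11 fell, at an unadjusted p of 0.05 or in DESeq2 or limma-voom either. In Col5a3 and Col27a1 the ages did not overlap. Col5a3, which encodes the α3 chain of type V and lies at chr9:20770050-20815117, ran from 12.9 to 15.5 CPM at P3, with a median of 13.6, and from 37.7 to 71.1 CPM at P9, with a median of 59.3. Every P9 library was above every P3 library, and the log2 fold change was 2.03 ± 0.13, adjusted p = 2.98e-08. It kept its call and direction in every leave-one-out fit and every other setting tried, with values from 1.95 to 2.17. Col27a1, a fibrillar chain of cartilage and other tissues at chr4:63214009-63334991, measured 15.2 CPM in the lowest, 21.1 at the median and 28.7 in the highest P3 library, against 54.3, 94.8 and 163 at P9. All 6 P9 libraries were above all 6 P3 libraries, and the log2 fold change was 2.23 ± 0.27, adjusted p = 7.84e-06.

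The stretch upstream of the Col5a3 start, chr9:20815118-20815317, minus strand, is printed because this gene had the smallest adjusted p of the 44 (GRCm38.p6, RefSeq; capitals as above).
Col5a3: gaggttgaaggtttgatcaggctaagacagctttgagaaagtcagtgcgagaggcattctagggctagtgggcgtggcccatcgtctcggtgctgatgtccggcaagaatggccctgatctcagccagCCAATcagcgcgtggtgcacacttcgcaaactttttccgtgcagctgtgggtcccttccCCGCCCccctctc
It holds a CCAAT match on the gene's strand and a GGGCGG match on the opposite strand. Of the 15 genes that rose and had an entry, 7 held CCAAT and 8 held GGGCGG. Of the 4 that fell and had an entry, 1 held CCAAT and 3 held GGGCGG, and of all 35 collagen genes with an entry 13 and 21 did.

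The other type V chains and type XI moved less. Col5a1 had a median of 36.3 CPM at P3 (range 27.7 to 48.9) and of 55.6 CPM at P9 (range 38.6 to 82.2). Col5a2 had P3 levels of 17.6 to 38.3 CPM (median 34.7) and P9 levels of 29.02 to 61.9 CPM (median 46.1). Both rose with overlapping ages (log2 fold change 0.63 ± 0.17, adjusted p = 0.00567 for Col5a1, and 0.52 ± 0.20, adjusted p = 0.0406 for Col5a2). Col5a2 no longer passed when any one of 6 libraries was left out, P3 replicates 2, 4 and 6 and P9 replicates 2, 3 and 4, with adjusted p between 0.0589 and 0.101. Their ratio differed by 0.10 on the log2 scale (exact permutation test, adjusted p = 0.713). Col11a1, a chain that nucleates thin cartilage fibrils, measured 28.3 CPM in the lowest, 30.4 at the median and 35.8 in the highest P3 library, against 33.5, 45.2 and 62.9 at P9. It rose, with a slight overlap of the ages (log2 fold change 0.52 ± 0.14, adjusted p = 0.00605). Its partner Col11a2 ran from 49.9 to 85.6 CPM at P3, with a median of 61.4, and from 51.1 to 82.6 CPM at P9, with a median of 72.2. The ages overlapped over most of their range, and the log2 difference of 0.15 ± 0.14, adjusted p = 0.388 did not pass.

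Type I and type III chains, the main fibrillar collagens of connective tissue, depended on P3 replicate 1. Col3a1 ran from 10.4 to 112 CPM at P3, with a median of 20.1, and from 78.3 to 154 CPM at P9, with a median of 102. All P3 libraries but replicate 1 lay below all P9 libraries. Col3a1 rose (log2 fold change 1.70 ± 0.50, adjusted p = 0.009898), and without P3 replicate 1 the value was 2.62 (adjusted p = 3.50e-06). Col1a2 had P3 levels of 10.5 to 146 CPM (median 22.9) and P9 levels of 39.96 to 75.2 CPM (median 63.5). Its ages also overlapped only through P3 replicate 1, and its log2 difference of 0.59 ± 0.51, adjusted p = 0.348 did not pass. Without that library it was 1.64 (adjusted p = 2.62e-05), and limma-voom on all 12 libraries called it at 1.19 (adjusted p = 0.0242). Col1a1 measured 5.63 CPM in the lowest, 11.5 at the median and 196 in the highest P3 library, against 8.24, 14.2 and 39.1 at P9. The P3 value of 196 CPM was replicate 1, the others lay at or below 22.9 CPM, and the ages overlapped. The log2 value of Col1a1 was -1.32 ± 0.77, adjusted p = 0.166; without P3 replicate 1 it turned to 0.48 (adjusted p = 0.334). The ratio of Col1a1 to Col1a2 was 0.407 to 1.35 at P3 and 0.149 to 0.520 at P9, lower by 1.44 on the log2 scale (exact permutation test, adjusted p = 0.0195), and leaving out single libraries gave differences between -1.65 and -1.24. Of the 12 tested fibroblast and meningeal markers 4 rose and 3 fell, and their sum was 134 to 205 CPM at P3 and 191 to 352 CPM at P9. With their mean as a covariate, which shared 9.31% of its variance with age, Col1a1 fell (-1.05, adjusted p = 0.0167), Col1a2 rose (0.70, adjusted p = 0.0314) and Col3a1 rose (1.79, adjusted p = 0.000350). In that model Col14a1 (-1.55, adjusted p = 0.0659) and Col5a2 (0.42, adjusted p = 0.104) no longer passed, and 23 of the 25 collagen calls were shared with the model without it.

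**Figure D5:**
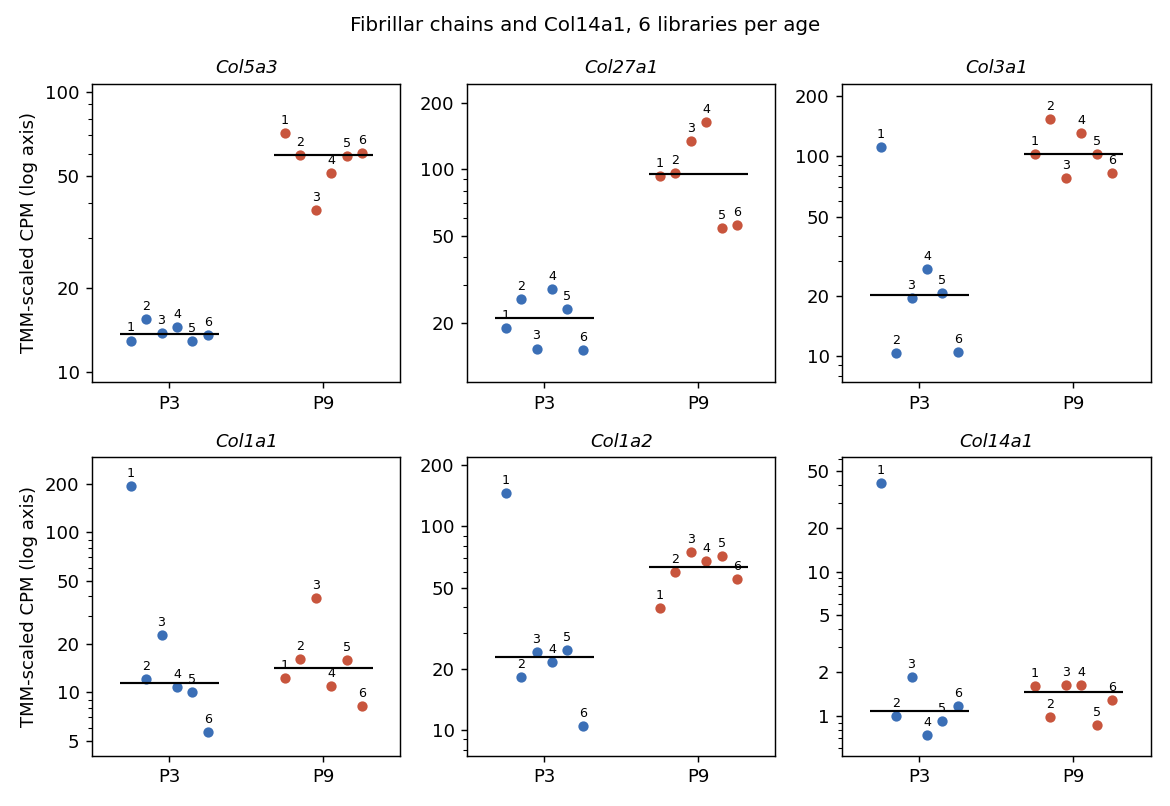
TMM-scaled CPM of 5 fibrillar chain genes and of Col14a1 in each library on a log axis, P3 beside P9, with a line at the median of each age and replicate numbers beside the points. Col5a3 and Col27a1 show no overlap, and a single P3 point, replicate 1, lies far above the other P3 points for Col1a1 at 196, Col1a2 at 146, Col3a1 at 112 and Col14a1 at 41.2 CPM.

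Col2a1, the type II chain of vitreous and cartilage, had a median of 958 CPM at P3 (range 840.3 to 1147) and of 630.03 CPM at P9 (range 383 to 1231). Only P9 replicates 5 and 6, at 1007 and 1231 CPM, reached the P3 range. Its log2 difference of -0.41 ± 0.22, adjusted p = 0.1397 did not pass. Without P9 replicate 6 it was -0.61 (adjusted p = 0.0166), and without replicates 5 and 6 together it was -0.83 (adjusted p = 0.000680). The last fit leaves out every P9 library in the P3 range, so it shows how far the value rests on replicates 5 and 6 and is no separate test of a fall. Those libraries also had the highest P9 sums of the Müller glia list, 1995 and 1999 CPM, and of the rod list, 16290.0 and 16698 CPM. Their part in the Col2a1 value was not tested. Col24a1, a minor fibrillar chain, had P3 levels of 3.24 to 6.904 CPM (median 5.44) and P9 levels of 3.15 to 7.22 CPM (median 4.92). The ages overlapped almost fully (adjusted p = 0.999).

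Type IX collagen, which decorates type II fibrils, split between its chains. Col9a1, at chr1:24177589-24252738, ran from 78.3 to 102 CPM at P3, with a median of 91.95, and from 154 to 240.2 CPM at P9, with a median of 186. Every P9 library was higher than every P3 library, and Col9a1 rose (log2 fold change 1.07 ± 0.12, adjusted p = 4.01e-06). Col9a2, at chr4:121039566-121055325, measured 50.9 CPM in the lowest, 56.998 at the median and 75.5 in the highest P3 library, against 35.7, 40.04 and 50.003 at P9. Col9a3, at chr2:180598102-180622192, had P3 levels of 72.6 to 108 CPM (median 91.3) and P9 levels of 50.8 to 69.4 CPM (median 55.6). For Col9a2 and Col9a3 every P9 library was lower than every P3 library, and both fell (log2 fold change -0.54 ± 0.11, adjusted p = 0.00101 for Col9a2, and -0.64 ± 0.11, adjusted p = 0.000138 for Col9a3). The ratio of Col9a1 to Col9a2 was 1.12 to 1.87 at P3 and 3.08 to 6.46 at P9. That log2 difference, 1.59, was the largest of the 9 pairs (exact permutation test, p = 0.00216, adjusted p = 0.00974), and it stayed between 1.49 and 1.70 when single libraries were left out.

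Col9a1 has 2 annotated starts, 17593 bases apart, and the tables give a single count per gene, so their use was not measured. The change in the ratio of Col9a1 to Col9a2 is free of length only if that use was the same at both ages. The stretches before both are printed, with that of Col9a2, because these partner chains moved in opposite directions: start 1 at chr1:24177360-24177588, plus strand; start 2 at chr1:24194953-24195202, plus strand, inside the gene; and Col9a2 at chr4:121039316-121039565, plus strand (GRCm38.p6, RefSeq; capitals as above).
Col9a1 start 1: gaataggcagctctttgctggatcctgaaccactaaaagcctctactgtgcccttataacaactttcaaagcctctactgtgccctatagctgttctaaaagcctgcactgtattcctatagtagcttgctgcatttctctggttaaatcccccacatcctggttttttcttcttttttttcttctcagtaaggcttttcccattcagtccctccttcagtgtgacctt
Col9a1 start 2: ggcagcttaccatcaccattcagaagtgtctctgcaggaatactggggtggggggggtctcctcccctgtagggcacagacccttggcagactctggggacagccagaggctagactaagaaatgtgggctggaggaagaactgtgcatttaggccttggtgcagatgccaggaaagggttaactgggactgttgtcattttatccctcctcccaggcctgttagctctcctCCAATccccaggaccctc
Col9a2: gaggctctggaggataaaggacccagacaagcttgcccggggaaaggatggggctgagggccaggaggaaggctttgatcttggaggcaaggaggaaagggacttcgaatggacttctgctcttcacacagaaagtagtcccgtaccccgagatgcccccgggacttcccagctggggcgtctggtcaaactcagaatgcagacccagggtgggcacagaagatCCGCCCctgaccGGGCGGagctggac
Start 1 holds none of the motifs, start 2 holds a CCAAT match on the gene's strand, and Col9a2 holds a GGGCGG match on each strand.

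None of the 6 type VI genes passed edgeR's test, reached an unadjusted p of 0.05 or passed in DESeq2 or limma-voom, with log2 values from -0.30 to 0.36 and a median of 0.083. Col6a1 ran from 175 to 285 CPM at P3, with a median of 233, and from 188 to 253 CPM at P9, with a median of 203. Col6a2 had P3 levels of 15.1 to 44.2 CPM (median 20.02) and P9 levels of 24.2 to 33.2 CPM (median 30.8). These core chains overlapped between the ages (log2 difference -0.14 ± 0.13, adjusted p = 0.358 for Col6a1, and 0.34 ± 0.22, adjusted p = 0.229 for Col6a2). Without P3 replicate 1, the highest for Col6a2 at 44.2 CPM, Col6a2 rose by 0.62 (adjusted p = 0.00260). Without P3 replicates 4 and 5 Col6a1 was at -0.29 (adjusted p = 0.0288). The ratio of Col6a1 to Col6a2 counts was lower at P9, 6.06 to 11.9 at P3 against 5.91 to 8.52, a log2 difference of -0.55 (exact permutation test, adjusted p = 0.0244). Leaving out any of 7 single libraries ended that call, with adjusted p up to 0.0623.

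Col6a3, the large α3 chain of the core trimer, measured 9.15 CPM in the lowest, 40.7 at the median and 213 in the highest P3 library, against 59.01, 89.8 and 103 at P9. Its P3 libraries differed from each other more than the ages did: replicates 3 and 4 measured 9.15 and 9.92 CPM and replicates 5 and 6 measured 213 and 111. The P9 libraries lay within that range, and the log2 value of 0.31 ± 0.61, adjusted p = 0.698 did not pass. Without P3 replicate 5 it was 1.05 (adjusted p = 0.117). The alternative chains α4, α5 and α6 were also without a call. Col6a4 had a median of 17.8 CPM at P3 (range 13.6 to 26.4) and of 15.9 CPM at P9 (range 2.42 to 24.7). Col6a5 had P3 levels of 5.03 to 6.904 CPM (median 5.43) and P9 levels of 4.29 to 9.88 CPM (median 6.898). Col6a6 had a median of 1.19 CPM at P3 (range 0.327 to 2.08) and of 1.13 CPM at P9 (range 0.317 to 1.29). In all 3 the ages overlapped, with log2 values of -0.30 ± 0.38, adjusted p = 0.537 for Col6a4, 0.36 ± 0.19, adjusted p = 0.1404 for Col6a5 and -0.24 ± 0.44, adjusted p = 0.676 for Col6a6. Without P9 replicate 1 Col6a5 passed at 0.47 (adjusted p = 0.0344).

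Of the 21 chains of other types, 9 rose, 4 fell and 8 did not pass, beside 26.1% rising and 25.6% falling among all tested genes. Col9a1, Col9a2 and Col9a3 are among these 21. Transmembrane collagens, which stay anchored in the cell surface, included 3 that rose. Col25a1 ran from 7.24 to 14.2 CPM at P3, with a median of 9.59, and from 15.4 to 28.6 CPM at P9, with a median of 21.98. Col13a1 had P3 levels of 0.3696 to 1.71 CPM (median 0.719) and P9 levels of 1.72 to 3.96 CPM (median 3.07). In both the ages did not overlap (log2 fold change 1.17 ± 0.18, adjusted p = 5.73e-05 for Col25a1, and 1.62 ± 0.37, adjusted p = 0.00198 for Col13a1). Col23a1 had a median of 104 CPM at P3 (range 92.2 to 121) and of 128 CPM at P9 (range 107 to 143). It rose by less, with overlapping ages (log2 fold change 0.27 ± 0.09, adjusted p = 0.0179), and the call was lost without P3 replicates 4 and 5 (adjusted p = 0.0819) and without P9 replicates 5 and 6 (adjusted p = 0.104). Col17a1, the hemidesmosome collagen of epithelia, measured 52.02 CPM in the lowest, 62.7 at the median and 96.1 in the highest P3 library, against 42.1, 56.1 and 62.8 at P9. The ages overlapped and its log2 value of -0.29 ± 0.14, adjusted p = 0.0988 did not pass, whereas without P3 replicate 3 it did, at -0.35 (adjusted p = 0.0477).

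Collagens that sit on fibrils or anchor basement membranes included several that rose. Col7a1, the anchoring fibril chain, ran from 18.2 to 35.2 CPM at P3, with a median of 22.1, and from 29.6 to 56.6 CPM at P9, with a median of 43.5. Col20a1 had P3 levels of 11.6 to 19.6 CPM (median 14.01) and P9 levels of 18.7 to 25.6 CPM (median 22.01). Each rose with a partial overlap of the ages (log2 fold change 0.75 ± 0.19, adjusted p = 0.00331 for Col7a1, and 0.61 ± 0.14, adjusted p = 0.00171 for Col20a1). Col12a1, a fibril-associated chain, measured 2.38 CPM in the lowest, 6.15 at the median and 20.9 in the highest P3 library, against 10.7, 19.4 and 22.4 at P9. Its highest P3 library, replicate 1 at 20.9 CPM, lay among the P9 values, and without it the log2 fold change was 1.55 (adjusted p = 0.00126). With all libraries Col12a1 rose (log2 fold change 1.06 ± 0.40, adjusted p = 0.0382), and this call was lost without any one of 8 libraries, P3 replicates 2, 4, 5 and 6 and P9 replicates 1 to 4, with adjusted p from 0.0579 to 0.0750.

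Col14a1, another fibril-associated chain, ran from 0.743 to 41.2 CPM at P3, with a median of 1.09, and from 0.863 to 1.64 CPM at P9, with a median of 1.46. The P3 value of 41.2 CPM was replicate 1, and the other P3 libraries, 0.743 to 1.86 CPM, overlapped the P9 range. Col14a1 counted as falling (log2 fold change -2.54 ± 0.96, adjusted p = 0.0372). Without P3 replicate 1 its value was 0.23 (adjusted p = 0.593), and without any single P9 library its adjusted p was between 0.0557 and 0.0718. Col16a1 had a median of 12.2 CPM at P3 (range 10.7 to 21.7) and of 14.1 CPM at P9 (range 11.6 to 17.8). Col22a1 had P3 levels of 2.68 to 3.46 CPM (median 2.73) and P9 levels of 1.09 to 3.205 CPM (median 1.78). Col19a1 had a median of 0.591 CPM at P3 (range 0.416 to 1.32) and of 0.968 CPM at P9 (range 0.489 to 1.63). The ages of these 3 overlapped and none passed, with log2 values of 0.08 ± 0.17, adjusted p = 0.7101 for Col16a1, -0.55 ± 0.29, adjusted p = 0.126 for Col22a1 and 0.50 ± 0.41, adjusted p = 0.324 for Col19a1. Without P3 replicate 1, its highest P3 library, Col16a1 was at 0.26 (adjusted p = 0.117). Col22a1 passed without P9 replicate 5, at -0.74 (adjusted p = 0.0460).

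The basement membrane multiplexins, whose ends are cleaved into soluble fragments such as endostatin, did not pass. Col18a1 ran from 74.3 to 125 CPM at P3, with a median of 104, and from 96.7 to 134 CPM at P9, with a median of 106. Col15a1 had P3 levels of 4.07 to 12.4 CPM (median 6.74) and P9 levels of 6.798 to 17.4 CPM (median 9.19). Their ages overlapped (log2 value 0.11 ± 0.12, adjusted p = 0.452 for Col18a1, and 0.50 ± 0.27, adjusted p = 0.144 for Col15a1), and without P3 replicate 1 Col15a1 passed at 0.68 (adjusted p = 0.0490). The short network chains of type VIII, found in vessel walls and in Descemet's membrane of the cornea, did not pass either. Col8a1 had a median of 16.2 CPM at P3 (range 6.68 to 21.6) and of 23.1 CPM at P9 (range 14.9 to 32.5). Col8a2 had P3 levels of 1.75 to 8.26 CPM (median 3.09) and P9 levels of 3.69 to 7.58 CPM (median 5.0998). The ages overlapped in both, at 0.56 ± 0.25, adjusted p = 0.0782 for Col8a1 and 0.48 ± 0.31, adjusted p = 0.216 for Col8a2. Col8a2 passed without P3 replicate 1 at 0.86 (adjusted p = 0.00854), and Col8a1 passed without P3 replicate 5 at 0.68 (adjusted p = 0.0413) or without P9 replicate 1 at 0.65 (adjusted p = 0.0488). Their ratio did not differ detectably (log2 difference -0.0044, exact permutation test, adjusted p = 0.991).

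The remaining 3 genes were called at low levels. Col10a1, the short chain of hypertrophic cartilage, ran from 0.0714 to 0.921 CPM at P3, with a median of 0.274, and from 0.345 to 3.42 CPM at P9, with a median of 1.65. Col28a1 had P3 levels of 0.194 to 1.69 CPM (median 0.751) and P9 levels of 1.35 to 4.86 CPM (median 2.41). Col26a1 had a median of 5.798 CPM at P3 (range 4.19 to 8.28) and of 3.72 CPM at P9 (range 1.54 to 5.11). The ages overlapped in each. Col10a1 and Col28a1 rose (log2 fold change 2.18 ± 0.68, adjusted p = 0.0141 for Col10a1, and 1.75 ± 0.48, adjusted p = 0.00652 for Col28a1), and Col26a1 fell (-0.79 ± 0.28, adjusted p = 0.0294). Without P3 replicate 4 the Col10a1 value was 2.82 (adjusted p = 0.00343), and without P9 replicates 5 and 6 it did not pass (1.65, adjusted p = 0.0957). Col26a1 no longer passed when P3 replicate 1, 2 or 3 or P9 replicate 1 was left out, with adjusted p from 0.0535 to 0.0720.

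Genes that act on collagen were followed from fixed lists. Among all tested genes 26.1% rose and 25.6% fell. Of 30 enzymes and chaperones of collagen folding, secretion and crosslinking, 13 rose, 6 fell and 11 did not pass, with a median log2 fold change of 0.20. The 2 most abundant that rose were P4hb, the β subunit of prolyl 4-hydroxylase, with 165 ± 22.9 CPM at P3 and 225 ± 18.4 at P9 (log2 fold change 0.45 ± 0.09, adjusted p = 0.000934), and Serpinh1, the collagen chaperone HSP47, with 90.6 ± 24.2 CPM at P3 and 189.6 ± 49.5 at P9 (log2 fold change 1.07 ± 0.19, adjusted p = 0.000277). The 2 most abundant that fell were Pxdn, the peroxidasin that forms sulfilimine crosslinks in type IV collagen, with 313 ± 42.2 CPM at P3 and 180.2 ± 45.7 at P9 (log2 fold change -0.80 ± 0.15, adjusted p = 0.000513), and P3h3, a prolyl 3-hydroxylase family member, with 220.5 ± 41.4 CPM at P3 and 157 ± 17.3 at P9 (log2 fold change -0.49 ± 0.12, adjusted p = 0.00301).

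All 10 tested collagen receptors changed, 6 up and 4 down, beside 51.8% of all tested genes called, with a median log2 fold change of 0.55. Itgb1, the integrin β1 subunit, had 175 ± 19.6 CPM at P3 and 265 ± 56.2 at P9 (log2 fold change 0.60 ± 0.13, adjusted p = 0.00124), and Itga1, its collagen-binding α1 partner, had 32.2 ± 23.4 CPM at P3 and 185 ± 66.5 at P9 (log2 fold change 2.52 ± 0.43, adjusted p = 0.0001703). Ddr1, a receptor tyrosine kinase for collagen, had 387 ± 24.1 CPM at P3 and 168 ± 24.3 at P9 (log2 fold change -1.21 ± 0.09, adjusted p = 1.22e-07), and the adhesion receptor Adgrg1, which binds type III collagen, had 61.2 ± 9.26 CPM at P3 and 12.02 ± 2.63 at P9 (log2 fold change -2.35 ± 0.15, adjusted p = 4.03e-08). The called receptors split within the integrins too, since the collagen-binding subunits Itga2 and Itga10 were among the 4 that fell. Of the 13 other basement membrane genes 8 rose and 5 fell, beside 26.1% and 25.6% of all tested genes, with a median of 1.01. Sparc, a collagen-binding matrix protein, had 169 ± 45.2 CPM at P3 and 472 ± 60.99 at P9 (log2 fold change 1.48 ± 0.16, adjusted p = 2.98e-06), and Nid1, which links laminin to type IV collagen, had 145 ± 43.5 CPM at P3 and 332 ± 98.1 at P9 (log2 fold change 1.19 ± 0.21, adjusted p = 0.000265). The proteoglycans agrin and perlecan fell: Agrn had 1265 ± 182 CPM at P3 and 883 ± 126 at P9 (log2 fold change -0.52 ± 0.11, adjusted p = 0.00147) and Hspg2 had 185 ± 32.1 CPM at P3 and 96.6 ± 44.8 at P9 (log2 fold change -0.94 ± 0.24, adjusted p = 0.004103). Values in this and the preceding list are means ± SD over 6 libraries, with log2 fold changes ± SE.

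Summed by type, type IV chains made 1093 ± 293 CPM at P3 and 1790 ± 508 CPM at P9 (SD, n = 6 at each age), fibrillar chains 1301 ± 133 and 1307 ± 240.3, type VI chains 349 ± 88.7 and 348 ± 19.8, and the other chains 636 ± 70.4 and 758 ± 51.96. These sums weight longer transcripts more, and they are descriptions with no test. Over all 44 genes the sum was 2772 to 3726 CPM at P3 and 3696 to 4689 CPM at P9.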

How the data were processed

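The authors deposited RSEM expected counts per gene, estimated read counts not scaled to depth, for 12 libraries; 15.9% of the values are not whole. The submitters' processing notes name mm10, STAR, RSEM, limma, FastQC and Trim Galore, and give no versions or annotation here. Expected counts divide reads shared by similar genes through a model. Groups are the labelled ages; replicate numbers follow accession order and pair nothing. The labels of P9 replicates 5 and 6 carry names crossed between title and file; both are P9.

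Counts were rounded, filtered with filterByExpr (18638 of 53090 genes kept), scaled by TMM and compared with edgeR 4.0.16 (glmQLFit and glmQLFTest) in R 4.3.3, adjusting p-values by Benjamini-Hochberg across the whole table (threshold 0.05). The standard error is the size of the log2 fold change divided by the square root of F. All 6 libraries of each age entered, with no covariate. Partner chain ratios used log2 of counts plus 0.5 and a two-sided exact permutation test, adjusted over 9 pairs. The fit was tested on simulated counts, and the permutation test on a made-up case with the ages fully separate. Symbols and positions came from RefSeq on GRCm38.p6, in which all 44 genes matched. The 17 lists were partner genes or cell markers. Members and lists were chosen with earlier results of these data known. Every member was described, and of the partner lists the 2 most abundant called genes in each direction were named; Itga2 and Itga10 were named after their values were seen. Alternatives were other scalings, filters, tools (DESeq2 1.42.0, limma 3.58.1), marker covariates and libraries left out.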

Additional observations from a re-analysis of the deposited data

Results flagged for a closer look

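Of 88 sets of 6 libraries, one for each gene and age, 12 held a library whose gap to its nearest neighbour was large for the range of the set by Dixon's test. Chance flags about 1 in 20 such sets. P3 replicate 1 was the high library in 7 of the 12. There Col1a1 measured 196 CPM, Col1a2 146, Col3a1 112, Col6a2 44.2, Col14a1 41.2, Col16a1 21.7 and Col8a2 8.26. The same library held Dcn at 21.8, Lum at 9.48 and Dpt at 3.57 CPM. Its sum over the fibroblast and meningeal list that holds these genes, 181 CPM, lay within the P3 range of 134 to 205 CPM. The largest part of that sum was Pdgfra, 65.7 CPM, so it hardly reflects these smaller members. P9 replicate 3 was the high library for Col1a1 at 39.1 and for Col4a4 at 30.0 CPM. P9 replicate 4 was the high library for Col6a1 at 253 CPM. P3 replicate 4 was the high library for Col10a1 at 0.921 CPM. P9 replicate 1 was the low library for Col6a6 at 0.317 CPM.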

How the results depend on the processing

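No paired analysis was possible because replicates carry no label shared by the ages. The counts of collagen genes called, 17 rising and 8 falling, were within 1.5 times of these under 3 other scalings, no filter, a mean of at least 10 CPM, DESeq2, limma-voom, a robust fit, unrounded counts and the fibroblast covariate (which shared 23 of the 25 calls), and with single libraries left out (15 to 21 rising, the most without P3 replicate 1, and 6 to 8 falling). At an adjusted p under 0.01, 5 fell. The other marker means overlap strongly with age, and with them as covariates fewer genes were called. With the pericyte mean 1 collagen gene rose and 0 fell in edgeR (8 had an unadjusted p under 0.05), against 373 and 343 of all genes; with the endothelial mean 3 rose and 5 fell, against 2346 and 2408; with the lens mean 4 rose and 2 fell, against 1095 and 511. Over all settings and genes 1217 log2 values were computed, of which 1056 kept direction and call, 99 lost the call, 20 gained one and 42 changed sign.

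Sign changes with the pericyte covariate were Col6a1 0.51, Col18a1 -0.77, Col26a1 0.13, Col14a1 0.50, Col2a1 0.10, Col5a2 -0.15, Col5a1 -0.28, Col9a3 0.051, Col24a1 0.66, Col4a1 -0.64, Col4a2 -0.84, Col16a1 -0.047, Col6a6 1.06, Col6a3 -1.95, Col28a1 -1.06 and Col22a1 0.091. With the endothelial covariate they were Col18a1 -0.21, Col6a2 -0.34, Col15a1 -0.21, Col1a2 -0.47 and Col16a1 -0.41, and with the fibroblast covariate Col16a1 -0.0049. With the lens covariate they were Col19a1 -0.17, Col11a1 -0.31, Col24a1 0.35, Col1a2 -0.64, Col6a4 0.44, Col16a1 -0.013, Col6a6 0.032 and Col8a2 -0.57. Col24a1, at -0.00021 in the edgeR fit, was 0.0069 with library totals, 0.017 with no filter, 0.047 without P9 replicates 5 and 6, and from -0.12 to 0.11 with single libraries left out. With single libraries left out Col1a1 ran from -1.75 to 0.48 and Col14a1 from -2.78 to 0.23, both positive only without P3 replicate 1. The cause of these changes was not tested. DESeq2 gave no adjusted p for Col14a1.

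For the ratios, Col8a1 over Col8a2, at -0.0044, was 0.0035 with a pseudocount of 2 counts and 0.16 without P3 replicates 4 and 5, and ran from -0.20 to 0.14 with single libraries left out. Col6a1 over Col6a2 was -0.48 without P3 replicates 4 and 5 (exact permutation test, adjusted p = 0.0943) and -0.65 without P9 replicates 5 and 6 (adjusted p = 0.0643, exact test), and ran from -0.71 to -0.50 with single libraries left out. Col1a1 over Col1a2 was -1.21 without P9 replicates 5 and 6 (exact permutation test, adjusted p = 0.0643). With single libraries left out Col4a3 over Col4a4 ran from 0.55 to 0.77 and Col4a5 over Col4a6 from 0.58 to 0.99. Genes near 1 CPM rest on 25.8 to 38.5 counts a library, so Col10a1, Col13a1, Col14a1, Col19a1, Col28a1 and Col6a6 carry the widest counting error.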
